A study of Mus musculus with 50 samples.

Results

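Interferon-stimulated genes are the genes that cells switch on when an interferon binds its receptor. A list of 37 such genes was followed by gene symbol through RNA sequencing of 50 mouse mammary gland (MG) tumors, and all 37 were found among the 37701 genes of the expression table and among the 16733 genes that entered the tests. The tumors arose in female p53R270H/+WAPCre mice, which carry a heterozygous p53 point mutation that the Wap promoter-driven Cre recombinase makes active in the mammary gland, so that controls and treated animals had the same mutation. From 8 weeks of age the mice were injected subcutaneously every other day with vehicle, insulin, glargine, X10 or IGF1 until a tumor reached 1 cm3, and the tumor was taken 24 h after the last injection. Glargine and X10 are modified insulins, IGF1 is insulin-like growth factor 1, and the labels give no dose. There were 10 tumors in each of the 5 groups, each from its own mouse number, and tumors with the title Untreated were read as vehicle, the only other group that the series names. The study chose tumors of an epithelial to mesenchymal transition type with a latency near the median of their group, so they do not stand for every tumor of a treatment. Single tumors are named by their titles, so that a vehicle tumor has a name such as Untreated_186.

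Type I interferons, such as interferon beta, signal through Ifnar1 and Ifnar2 to a complex that holds Stat2 and Irf9 and binds the interferon-stimulated response element, whose core is a pair of GAAA repeats. Interferon gamma signals through Ifngr1 and Ifngr2 to factors that bind the gamma-activated sequence. Many of the genes respond to both, while the guanylate-binding proteins, the immunity-related GTPases and the chemokine Cxcl9 are best known as interferon gamma targets. In tumors the transcripts can come from cancer cells as well as from infiltrating immune and stromal cells, and in bulk RNA a change in the number of cells of a type and a change of RNA per cell cannot be told apart.

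The promoters of 6 of the genes are shown, chosen by level and without regard to the elements that they hold. They are the genes with the highest mean level in their role class, except that Isg15 stands for its class because the promoter of Parp9 is not analysed here. Each runs from 250 bases before to 50 bases after the start of transcription in RefSeq (build GRCm38.p6), is written 5′ to 3′ on the strand of the gene, and has in capitals every pair of GAAA with 2 bases of any kind between them, on either strand (the GAAA pair), and every TTCNNNGAA, where N is any base and the reverse strand reads the same.
Irf7, chr7:141266375-141266674, minus strand: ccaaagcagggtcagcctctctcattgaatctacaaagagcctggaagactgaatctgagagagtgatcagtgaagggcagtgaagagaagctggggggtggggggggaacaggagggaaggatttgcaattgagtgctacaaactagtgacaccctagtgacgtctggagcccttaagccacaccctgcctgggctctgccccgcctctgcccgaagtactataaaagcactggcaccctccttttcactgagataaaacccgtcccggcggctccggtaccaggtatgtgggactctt
Isg15, chr4:156200769-156201068, minus strand: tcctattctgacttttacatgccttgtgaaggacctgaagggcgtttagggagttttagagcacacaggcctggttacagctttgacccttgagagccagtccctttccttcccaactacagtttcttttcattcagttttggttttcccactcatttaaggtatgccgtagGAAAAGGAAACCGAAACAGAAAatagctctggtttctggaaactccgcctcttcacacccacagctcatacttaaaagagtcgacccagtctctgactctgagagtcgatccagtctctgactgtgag
Ddx58, chr4:40239776-40240075, minus strand: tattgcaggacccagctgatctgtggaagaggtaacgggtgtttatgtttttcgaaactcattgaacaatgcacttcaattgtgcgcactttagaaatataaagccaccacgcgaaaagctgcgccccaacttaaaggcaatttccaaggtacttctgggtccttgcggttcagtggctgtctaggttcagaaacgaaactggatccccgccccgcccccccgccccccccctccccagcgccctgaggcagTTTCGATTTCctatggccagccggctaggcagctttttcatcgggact
Bst2, chr8:71537423-71537722, minus strand: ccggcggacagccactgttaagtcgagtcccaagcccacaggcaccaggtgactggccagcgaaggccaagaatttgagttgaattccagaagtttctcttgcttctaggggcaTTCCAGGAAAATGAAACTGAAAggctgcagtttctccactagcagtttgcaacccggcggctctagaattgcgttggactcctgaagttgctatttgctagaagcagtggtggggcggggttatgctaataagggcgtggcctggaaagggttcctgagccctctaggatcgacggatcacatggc
Gbp2, chr3:142620413-142620712, plus strand: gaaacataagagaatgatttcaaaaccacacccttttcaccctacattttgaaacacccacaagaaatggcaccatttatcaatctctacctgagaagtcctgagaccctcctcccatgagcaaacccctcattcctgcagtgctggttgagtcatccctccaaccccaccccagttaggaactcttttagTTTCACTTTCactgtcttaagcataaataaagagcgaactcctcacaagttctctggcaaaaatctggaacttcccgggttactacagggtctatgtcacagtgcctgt
Cxcl10, chr5:92348840-92349139, minus strand: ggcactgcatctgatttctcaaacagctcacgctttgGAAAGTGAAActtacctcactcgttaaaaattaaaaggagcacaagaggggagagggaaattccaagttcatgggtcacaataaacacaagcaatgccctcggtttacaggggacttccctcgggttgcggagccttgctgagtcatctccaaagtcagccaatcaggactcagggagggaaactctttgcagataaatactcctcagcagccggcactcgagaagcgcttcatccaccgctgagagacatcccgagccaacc

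Counted from the transcription start, Isg15 held 3 overlapping GAAA pairs that began at -78, -72 and -66. Bst2 held 2 overlapping GAAA pairs, the first at -130, and a TTCNNNGAA that overlapped the first of them. Cxcl10 had a pair at -213, Gbp2 one on the opposite strand at -59, and Ddx58 one on the opposite strand from base 3, while Irf7 held neither motif in these 300 bases. RefSeq promoters were at hand for 27 of the 37 genes, and 17 of the 27 (62.96%) held the GAAA pair, against 3.99% of the 27025 genes in the promoter table and 3.44% of its 32851 promoters. The palindromic TTCNNNGAA was present in 6 of the 27 (22.2%), against 9.55% of all genes. Such a match is a description of the letters and not a measured binding site.

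The values are RPKM, that is read numbers per kilobase of a gene after scaling to a common library size, and not counts. Within a gene they were whole multiples of a fixed step, from which library sizes of 26.6 to 51.9 M reads (median 40.9) were recovered, with group medians of 44.0 M in vehicle and 35.3 M in X10 tumors. The correlation of a member with library size over the 50 tumors was between -0.05 and 0.19. For the 33 genes whose length could be recovered, the smallest number of reads behind a value was 26, for Cxcl9 in 1 tumor. The authors' gene lengths were 0.131 (Oasl2) to 1.34 (Gbp2) times the exon length in GENCODE M21, so levels of different genes are compared below only as RPKM of this table. The 37 genes lie on 14 chromosomes, several of them side by side: Oas2 and Oas3 are 3244 bases apart, and Dtx3l (chr16:35926511-35939151, minus strand) and Parp9 (chr16:35938470-35972605, plus strand) overlap by 682 bases at their starts (GRCm38). Reads of Dtx3l and Parp9, and those shared by close copies in the Oas, Gbp, Irgm, Mx, Ifit and Trim30 families, may have been split between genes or left uncounted. GENCODE types Mx2 as a polymorphic pseudogene. As a check of the tissue, the summed RPKM of 6 epithelial markers (Cdh1, Epcam, Krt8, Krt18, Krt14, Krt5) ran from 9.58 to 5098 and that of 4 mesenchymal markers from 3096 to 27588, so epithelial transcripts were scarce in some of these tumors.

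The interferon-stimulated genes varied more between tumors than most genes did. The highest tumor exceeded the lowest by 4.31-fold for Ifi35 and by 326-fold for Cxcl9. The median SD over tumors was 1.08 on the log2(RPKM + 0.5) scale for the 37 genes and 0.419 for all genes tested, and 24 of the 37 were in the upper 10% of all genes. Little of this spread lay between treatments: the treatment group accounted for 1.07% (Trim30a) to 21.6% (Oas3) of the variance of a member, with a median of 10.3%, against a median of 9.29% over all genes tested and 8.16% on average when 5 groups of 10 have no difference.

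A few tumors were high or low for nearly the whole list. The tumor Untreated_186 had the highest value of all 50 tumors for 28 of the 37 genes and was among the highest 5 for all 37, and IGF1_136 had the highest value for 7. Marker scores, the mean z-scores of sets of cell type markers, were also ranked from the highest. Untreated_186 was at rank 2 for T and NK cells and for plasmacytoid dendritic cells, 3 for B cells, 6 for leukocytes and 7 for macrophages. Its skeletal muscle score was at rank 2 as well, its dendritic cell score at 21 and its neutrophil score at 39. The plasmacytoid dendritic cell set (Siglech, Ccr9, Klk1 and Cox6a2) and the skeletal muscle set (Acta1, Ckm and Myh4) also shared their rank 1 tumor, glargine_64. The 2 remaining genes were highest in glargine_78 (Ddx58) and IGF1_158 (Isg15). At the other end, insulin_13 had the lowest value for 7 genes and was among the lowest 5 for 24. When each gene was expressed in standard deviations from its mean over the 50 tumors (a z-score), the mean over the 37 genes was -0.76 to 2.31 in vehicle tumors with a median of 0.26, -1.24 to 1.11 in insulin tumors with a median of -0.50, -0.97 to 1.78 in glargine tumors with a median of -0.25, -0.97 to 0.67 in X10 tumors with a median of -0.20, and -1.09 to 1.96 in IGF1 tumors with a median of -0.23. High and low tumors occurred in every group, and X10 alone had no tumor above 1.

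**Figure D1:**
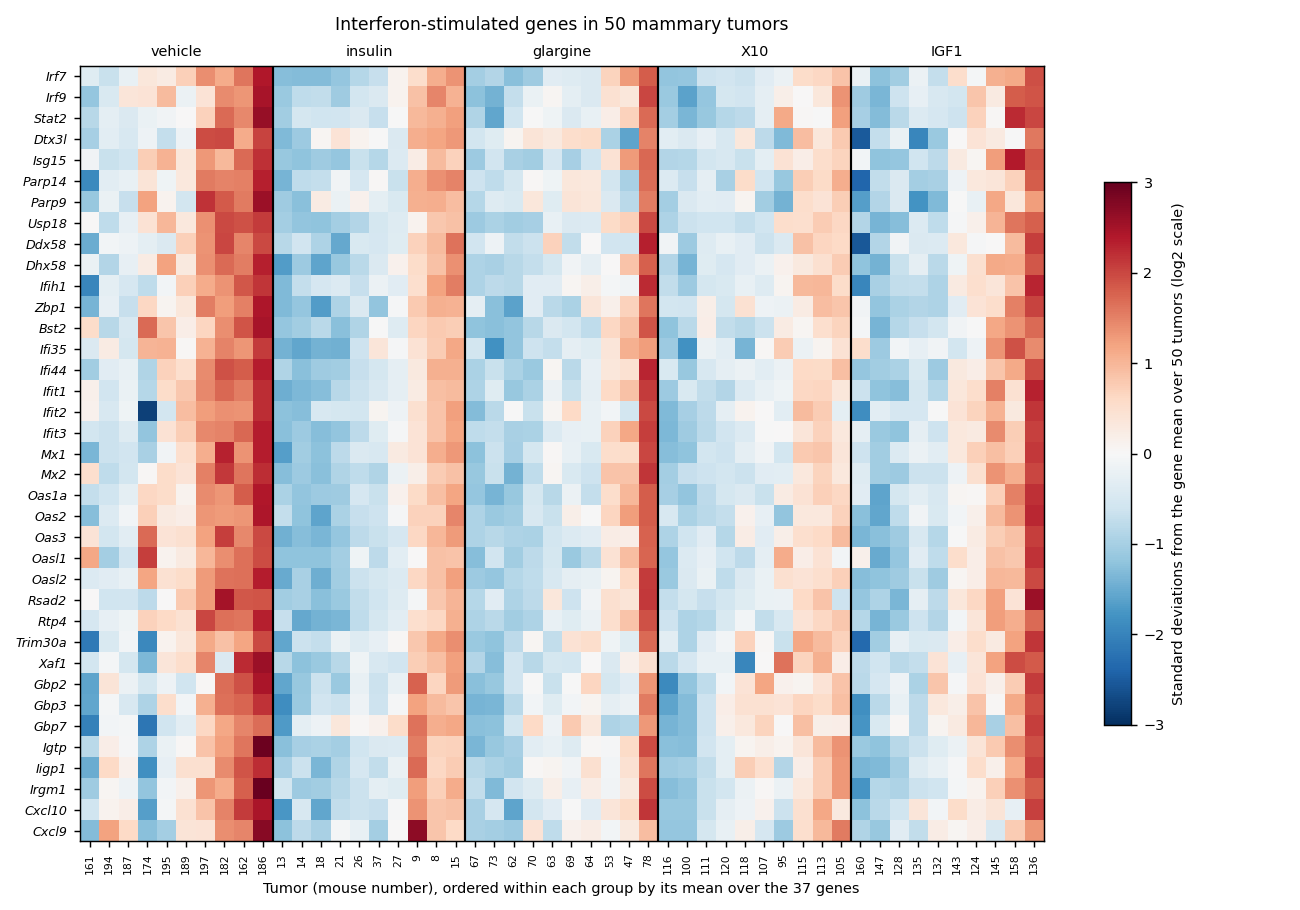
Each row is 1 of the 37 genes, grouped by role, and each column 1 of the 50 tumors, ordered within its treatment by the mean over the rows. The color is the standard deviations from the gene's mean on the log2(RPKM + 0.5) scale. The columns of Untreated_186, IGF1_136 and glargine_78 are red for almost every gene, and each treatment holds both red and blue columns.

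Irf7, Irf9 and Stat2 are the transcription factors of the list. Irf7, which amplifies the production of type I interferon, had both the highest mean level and the largest spread of the 3. Irf7 was 23.3 to 551 RPKM (median 81.2) in the vehicle tumors, 11.7 to 187.7 RPKM (median 20.6) in insulin and 12.4 to 307 RPKM (median 30.1) in glargine tumors. The X10 tumors had 13.5 to 113.9 RPKM (median 29.3) and the IGF1 tumors 12.6 to 339.7 RPKM (median 41.5). The vehicle median was the highest, but every treatment group overlapped the vehicle range. Relative to vehicle, the log2 fold change of Irf7 was -1.50 (SE 0.62, adjusted p = 0.370) in insulin, -1.22 (SE 0.62, adjusted p = 0.793) in glargine, -1.36 (SE 0.62, adjusted p = 0.415) in X10 and -0.79 (SE 0.62, adjusted p = 0.794) in IGF1 tumors. Irf9 (5.36-fold from the lowest to the highest tumor) and Stat2 (8.32-fold), which act together in the type I interferon complex, varied less than Irf7 (47.0-fold).

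Isg15 is a ubiquitin-like protein that is attached to other proteins, Usp18 removes it again and also dampens signaling at the type I receptor, Parp9 and Dtx3l work as a pair in ADP-ribosylation and ubiquitination, and Parp14 is a further ADP-ribosyltransferase. Isg15 was 14.9 to 211 RPKM (median 61.9) in the vehicle tumors, 8.74 to 67.4 RPKM (median 13.5) in insulin and 9.78 to 136.6 RPKM (median 15.9) in glargine tumors. It was 12.0 to 51.4 RPKM (median 19.2) in X10 tumors and 8.78 to 252 RPKM (median 27.5) in IGF1 tumors. The highest values were in an IGF1 and a vehicle tumor, the vehicle median was the highest and the insulin median the lowest, and the groups overlapped. Usp18 was 2.44 to 41.2 RPKM (median 11.5) in the vehicle tumors, 1.43 to 12.9 RPKM (median 2.65) in insulin and 1.64 to 37.4 RPKM (median 3.49) in glargine tumors. For X10 the range was 1.99 to 11.5 RPKM (median 2.91), and for IGF1 it was 1.10 to 31.3 RPKM (median 4.39). Usp18 likewise had its highest median in vehicle and its lowest in insulin tumors, with overlapping ranges. The log2 fold change of Isg15 was -1.53 (SE 0.55, adjusted p = 0.324) in insulin, -1.24 (SE 0.55, adjusted p = 0.789) in glargine, -1.18 (SE 0.55, adjusted p = 0.425) in X10 and -0.65 (SE 0.55, adjusted p = 0.810) in IGF1 tumors, and that of Usp18 was -1.69 (SE 0.55, adjusted p = 0.301) in insulin, -1.34 (SE 0.55, adjusted p = 0.789) in glargine, -1.31 (SE 0.55, adjusted p = 0.370) in X10 and -1.12 (SE 0.55, adjusted p = 0.557) in IGF1 tumors. Parp9 was 37.2 to 151.2 RPKM (median 75.1) in the vehicle tumors, 35.7 to 86.2 RPKM (median 56.5) in insulin and 41.3 to 102.6 RPKM (median 49.7) in glargine tumors. In X10 tumors it was 33.6 to 75.9 RPKM (median 50.6) and in IGF1 tumors 29.1 to 92.0 RPKM (median 50.8). Parp9 had the highest mean of this class and spanned only 5.20-fold over the 50 tumors, less than Parp14 (10.6-fold), Dtx3l (6.44-fold), Isg15 (28.8-fold) and Usp18 (37.3-fold). Its log2 fold change was -0.36 (SE 0.23, adjusted p = 0.566) in insulin, -0.41 (SE 0.23, adjusted p = 0.807) in glargine, -0.52 (SE 0.23, adjusted p = 0.397) in X10 and -0.56 (SE 0.23, adjusted p = 0.442) in IGF1 tumors.

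Ddx58 (RIG-I), Ifih1 (MDA5) and Dhx58 (LGP2) bind viral or self double-stranded RNA in the cytoplasm, and Zbp1 binds nucleic acids in the Z conformation and can start necroptosis. Ddx58 was 21.1 to 93.8 RPKM (median 46.6) in the vehicle tumors, 20.7 to 80.3 RPKM (median 32.7) in insulin and 29.0 to 108.5 RPKM (median 31.3) in glargine tumors. The X10 tumors had 25.1 to 58.1 RPKM (median 35.5) and the IGF1 tumors 13.4 to 97.4 RPKM (median 38.9). The groups overlapped almost completely, and the highest of all tumors was glargine_78. Zbp1 had the largest spread of these sensors. Zbp1 was 5.86 to 87.4 RPKM (median 22.6) in the vehicle tumors, 4.74 to 33.8 RPKM (median 9.99) in insulin and 4.97 to 49.3 RPKM (median 12.9) in glargine tumors. It was 10.7 to 30.6 RPKM (median 16.3) in X10 tumors and 6.84 to 66.2 RPKM (median 13.7) in IGF1 tumors. Here too vehicle had the highest median and the ranges overlapped. The log2 fold change was -0.43 (SE 0.27, adjusted p = 0.562) in insulin, -0.37 (SE 0.27, adjusted p = 0.841) in glargine, -0.38 (SE 0.27, adjusted p = 0.618) in X10 and -0.37 (SE 0.27, adjusted p = 0.757) in IGF1 tumors for Ddx58, and -0.92 (SE 0.42, adjusted p = 0.410) in insulin, -0.78 (SE 0.42, adjusted p = 0.804) in glargine, -0.48 (SE 0.42, adjusted p = 0.710) in X10 and -0.53 (SE 0.42, adjusted p = 0.800) in IGF1 tumors for Zbp1.

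The largest class holds 17 effectors that act on viral RNA, viral particles or infected cells. Bst2 (tetherin), which holds budding virus particles at the membrane, was the most abundant. Bst2 was 37.4 to 514 RPKM (median 130.6) in the vehicle tumors, 26.2 to 134.3 RPKM (median 45.4) in insulin and 26.4 to 322 RPKM (median 42.8) in glargine tumors. For X10 the range was 27.2 to 124.4 RPKM (median 59.5), and for IGF1 it was 23.7 to 281 RPKM (median 68.0). The vehicle median of Bst2 was the highest and the glargine and insulin medians were the lowest. Ifi44 was 1.47 to 64.2 RPKM (median 10.3) in the vehicle tumors, 1.11 to 16.9 RPKM (median 2.61) in insulin and 1.36 to 59.6 RPKM (median 3.21) in glargine tumors. In X10 tumors it was 1.30 to 14.2 RPKM (median 4.08) and in IGF1 tumors 1.26 to 42.5 RPKM (median 4.87). Ifi44 had the largest SD on the log2(RPKM + 0.5) scale among the effectors (1.48), while Ifit2 (79.1-fold) and Ifit3 (70.2-fold) had a larger fold range than Ifi44 (57.6-fold), and in each group its median was well below its highest tumor. Oas3 was 1.82 to 24.9 RPKM (median 8.26) in the vehicle tumors, 0.532 to 11.7 RPKM (median 1.48) in insulin and 1.12 to 18.5 RPKM (median 1.98) in glargine tumors. The X10 tumors had 1.15 to 8.54 RPKM (median 3.17) and the IGF1 tumors 0.605 to 25.0 RPKM (median 2.64). Oas3 makes the 2-5A messenger that activates RNase L, and it had the largest share of variance between treatments of the 37 genes. The log2 fold change was -1.35 (SE 0.46, adjusted p = 0.306) in insulin, -1.29 (SE 0.46, adjusted p = 0.789) in glargine, -1.26 (SE 0.46, adjusted p = 0.314) in X10 and -0.90 (SE 0.46, adjusted p = 0.585) in IGF1 tumors for Bst2. For Ifi44 it was -1.41 (SE 0.63, adjusted p = 0.403) in insulin, -1.15 (SE 0.63, adjusted p = 0.806) in glargine, -1.06 (SE 0.63, adjusted p = 0.539) in X10 and -0.96 (SE 0.63, adjusted p = 0.728) in IGF1 tumors. For Oas3 it was -1.73 (SE 0.53, adjusted p = 0.286) in insulin, -1.52 (SE 0.53, adjusted p = 0.789) in glargine, -1.24 (SE 0.53, adjusted p = 0.380) in X10 and -1.30 (SE 0.53, adjusted p = 0.436) in IGF1 tumors.

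The remaining effectors were the RNA-binding Ifit1, Ifit2 and Ifit3, the dynamin-like Mx1 and Mx2, the 2-5A synthetases and their relatives Oas1a, Oas2, Oasl1 and Oasl2, the antiviral enzyme Rsad2 (viperin), Trim30a, Ifi35, Rtp4 and the apoptosis-related Xaf1. Ifit2 ranged from 0.575 to 45.5 RPKM and Oasl2 from 13.1 to 254 RPKM. Rsad2 was 1.07 to 18.6 RPKM (median 3.54) in the vehicle tumors, 0.599 to 5.75 RPKM (median 1.22) in insulin and 0.901 to 14.1 RPKM (median 1.90) in glargine tumors. It was 1.14 to 4.99 RPKM (median 1.51) in X10 tumors and 0.493 to 19.8 RPKM (median 2.52) in IGF1 tumors. Rsad2 was low in every group outside a few tumors. Trim30a was 15.1 to 135.6 RPKM (median 53.3) in the vehicle tumors, 20.4 to 99.1 RPKM (median 42.1) in insulin and 24.7 to 116.6 RPKM (median 41.6) in glargine tumors. For X10 the range was 28.8 to 87.6 RPKM (median 46.5), and for IGF1 it was 13.4 to 148.9 RPKM (median 47.0). The 5 medians of Trim30a lay close together, and only 1.07% of its variance was between groups. Xaf1 was 23.9 to 231 RPKM (median 57.3) in the vehicle tumors, 25.6 to 107.5 RPKM (median 38.4) in insulin and 24.7 to 69.3 RPKM (median 38.3) in glargine tumors. In X10 tumors it was 16.6 to 133.7 RPKM (median 49.2) and in IGF1 tumors 32.5 to 162.4 RPKM (median 54.6). Glargine tumors had the narrowest range of Xaf1. The log2 fold change of Rsad2 was -1.18 (SE 0.47, adjusted p = 0.361) in insulin, -0.74 (SE 0.47, adjusted p = 0.823) in glargine, -0.97 (SE 0.47, adjusted p = 0.439) in X10 and -0.63 (SE 0.47, adjusted p = 0.768) in IGF1 tumors. That of Trim30a was -0.11 (SE 0.34, adjusted p = 0.940) in insulin, -0.20 (SE 0.34, adjusted p = 0.947) in glargine, 0.01 (SE 0.34, adjusted p = 0.994) in X10 and -0.09 (SE 0.34, adjusted p = 0.983) in IGF1 tumors, and that of Xaf1 was -0.54 (SE 0.36, adjusted p = 0.584) in insulin, -0.72 (SE 0.36, adjusted p = 0.789) in glargine, -0.36 (SE 0.36, adjusted p = 0.746) in X10 and -0.14 (SE 0.36, adjusted p = 0.970) in IGF1 tumors.

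Gbp2, Gbp3, Gbp7, Irgm1, Iigp1 and Igtp are GTPases that attack vacuoles holding intracellular pathogens. Gbp2 was 18.9 to 218 RPKM (median 48.0) in the vehicle tumors, 19.0 to 143.6 RPKM (median 38.2) in insulin and 23.1 to 109.9 RPKM (median 38.2) in glargine tumors. The X10 tumors had 15.4 to 101.3 RPKM (median 52.4) and the IGF1 tumors 27.8 to 176.4 RPKM (median 51.4). Gbp2 had the highest mean of these genes, and the X10 and IGF1 medians were above the vehicle median. Gbp7 was 2.85 to 24.3 RPKM (median 9.49) in the vehicle tumors, 3.77 to 23.6 RPKM (median 11.2) in insulin and 4.86 to 19.9 RPKM (median 8.16) in glargine tumors. It was 4.49 to 16.1 RPKM (median 10.8) in X10 tumors and 3.61 to 30.0 RPKM (median 10.2) in IGF1 tumors. Unlike most members, Gbp7 had a higher median in insulin, X10 and IGF1 tumors than in vehicle tumors, and the groups overlapped almost completely. Iigp1 was 0.766 to 76.3 RPKM (median 12.8) in the vehicle tumors, 1.55 to 44.5 RPKM (median 4.08) in insulin and 2.35 to 40.5 RPKM (median 7.48) in glargine tumors. For X10 the range was 2.28 to 30.0 RPKM (median 7.55), and for IGF1 it was 1.53 to 65.1 RPKM (median 6.77). Iigp1 varied 99.6-fold over the 50 tumors and had its lowest value in the tumor Untreated_174. The log2 fold change was -0.46 (SE 0.38, adjusted p = 0.681) in insulin, -0.52 (SE 0.38, adjusted p = 0.842) in glargine, -0.37 (SE 0.38, adjusted p = 0.764) in X10 and -0.14 (SE 0.38, adjusted p = 0.975) in IGF1 tumors for Gbp2. For Gbp7 it was 0.23 (SE 0.34, adjusted p = 0.838) in insulin, -0.13 (SE 0.34, adjusted p = 0.965) in glargine, -0.05 (SE 0.34, adjusted p = 0.974) in X10 and 0.05 (SE 0.34, adjusted p = 0.995) in IGF1 tumors. For Iigp1 it was -0.86 (SE 0.64, adjusted p = 0.641) in insulin, -0.59 (SE 0.64, adjusted p = 0.904) in glargine, -0.60 (SE 0.64, adjusted p = 0.771) in X10 and -0.60 (SE 0.64, adjusted p = 0.877) in IGF1 tumors.

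Cxcl9 and Cxcl10 are chemokines that draw T and natural killer (NK) cells through the receptor Cxcr3. Cxcl9 was 0.207 to 67.4 RPKM (median 5.01) in the vehicle tumors, 0.269 to 64.9 RPKM (median 2.16) in insulin and 0.413 to 8.47 RPKM (median 2.72) in glargine tumors. In X10 tumors it was 0.330 to 17.6 RPKM (median 1.59) and in IGF1 tumors 0.372 to 13.5 RPKM (median 2.25). A single tumor, insulin_9, set the top of the insulin range of Cxcl9, since the next insulin tumor had 7.46 RPKM. Cxcl10 was 3.44 to 275 RPKM (median 30.4) in the vehicle tumors, 3.08 to 87.7 RPKM (median 11.6) in insulin and 3.77 to 203 RPKM (median 15.0) in glargine tumors. The X10 tumors had 6.24 to 73.2 RPKM (median 16.9) and the IGF1 tumors 5.61 to 181.7 RPKM (median 23.5). Cxcl10 was higher than Cxcl9 in the median of every group. The log2 fold change of Cxcl9 was -0.78 (SE 0.71, adjusted p = 0.723) in insulin, -1.06 (SE 0.71, adjusted p = 0.827) in glargine, -0.98 (SE 0.71, adjusted p = 0.627) in X10 and -0.91 (SE 0.71, adjusted p = 0.793) in IGF1 tumors, and that of Cxcl10 was -1.23 (SE 0.65, adjusted p = 0.473) in insulin, -0.98 (SE 0.65, adjusted p = 0.827) in glargine, -1.10 (SE 0.65, adjusted p = 0.532) in X10 and -0.71 (SE 0.65, adjusted p = 0.836) in IGF1 tumors.

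**Figure D2:**
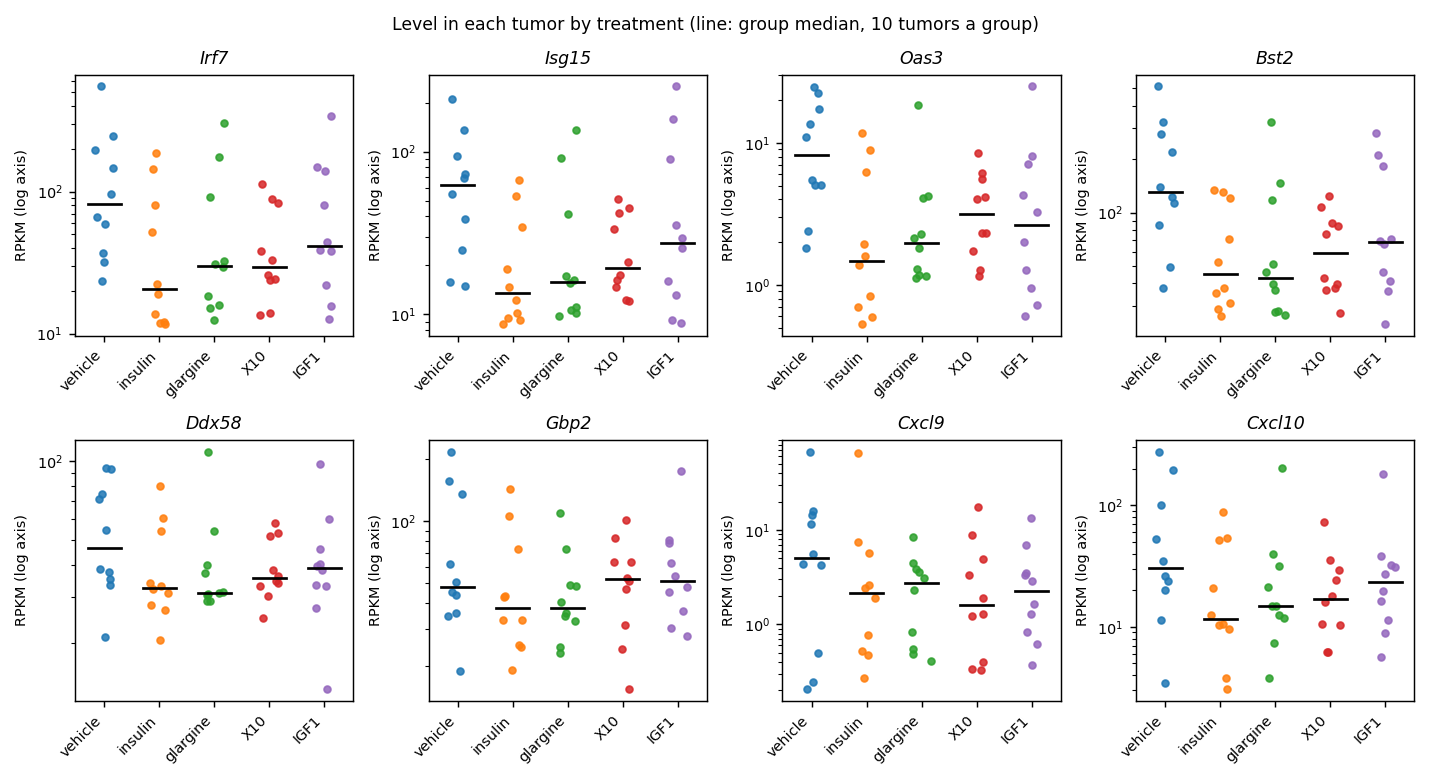
RPKM on a log axis for 8 of the genes in the 5 treatment groups, with 1 point per tumor and a line at the median of 10 tumors. Vehicle has the highest median in 7 of the 8 panels (Gbp2 is the exception), and the points of the groups overlap in all panels.

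No interferon-stimulated gene differed between treatments at an adjusted p below 0.05. Each gene was tested with limma on log2(RPKM + 0.5) with all 5 groups in the fit, and p-values were adjusted with the Benjamini-Hochberg method over all 16733 genes. The smallest adjusted p among the 37 was 0.286 for insulin against vehicle, a comparison in which 0 genes of all tested (0%) were called, and 0.789 for glargine against vehicle, with 0 genes (0%). It was 0.314 for X10 against vehicle, with 11 genes called in all (0.0657%), and 0.436 for IGF1 against vehicle, with 1 gene (0.00598%). For X10 and IGF1 together against vehicle, insulin and glargine, the study's division by affinity for the IGF1 receptor, it was 0.501, with 26 genes called (0.155%). An F test for any difference between the 5 groups gave 0.300 as the smallest adjusted p, with 17 genes called (0.102%).

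The 37 genes leaned to lower values in treated tumors without passing that test. Insulin tumors had lower values than vehicle tumors for 36 of the 37 genes, with a median log2 fold change of -0.86, against 0.03 over all genes tested. The counts were 37, 36 and 36 for glargine, X10 and IGF1, with medians of -0.74, -0.74 and -0.56, against 0.02, -0.03 and 0.02 over all genes. At an unadjusted p below 0.05, 18 members were lower in insulin tumors (5.17% of all genes tested), 12 in glargine (2.92%), 17 in X10 (8.25%) and 5 in IGF1 tumors (4.34%), and 0 were higher in any of the 4 (5.98%, 3.31%, 2.75% and 4.49% of all genes in the same order). The F test passed an unadjusted 0.05 for 8 of the 37 members, against 13.1% of all genes. The 37 genes vary together and the 4 comparisons use the same 10 vehicle tumors, so neither the genes nor the comparisons are independent of each other.

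The gene with the smallest p in 3 of the 4 comparisons was Oas3. Its log2 fold change in insulin tumors was -1.73 (SE 0.53, adjusted p = 0.286), with a 95% confidence interval of -2.78 to -0.67 and an unadjusted p of 0.00186 in the limma test. In X10 tumors it was Bst2, with -1.26 (SE 0.46, adjusted p = 0.314) and an interval of -2.19 to -0.33. Only Gbp7 was higher in insulin tumors (0.23 (SE 0.34, adjusted p = 0.838)) and in IGF1 tumors (0.05 (SE 0.34, adjusted p = 0.995)), and only Trim30a in X10 tumors (0.01 (SE 0.34, adjusted p = 0.994)). When the 4 ligands were pooled against vehicle, a comparison chosen after the values were seen, 36 genes were lower with a median of -0.68, 19 of them at an unadjusted p below 0.05 (5.3% of all genes) and 0 higher (3.97%), and 0 of the 37 were called, while 4 genes of all tested (0.0239%) were. Oas3 again had the smallest p, with -1.45 (SE 0.42, adjusted p = 0.246).

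Leukocyte markers had a higher median in each treated group than in vehicle. The summed RPKM of the leukocyte markers Ptprc, Laptm5, Cd53 and Coro1a was 352 to 1211 in vehicle tumors with a median of 703, and the medians were 969 in insulin, 730.3 in glargine, 842 in X10 and 861 in IGF1 tumors. Of these 4 markers 0 were called in a comparison with vehicle, and 4 were higher in insulin tumors at an unadjusted p below 0.05 (5.98% of all genes). In glargine, X10 and IGF1 tumors 0 were higher at that threshold (3.31%, 2.75% and 4.49%). The macrophage markers had 5 of 7 higher in insulin (median log2 fold change 0.79; 5.98% of all genes), 4 of 7 in IGF1 (0.92; 4.49%), 1 of 7 in glargine (0.48; 3.31%) and 1 of 7 in X10 tumors (0.33; 2.75%) at that threshold. The 6 epithelial markers had a median of -0.59 in insulin, -1.36 in IGF1, -0.31 in glargine and -0.05 in X10 tumors, where 1, 3, 1 and 0 of them were lower at an unadjusted 0.05 (5.17%, 4.34%, 2.92% and 8.25% of all genes). In limma 0 macrophage and 0 epithelial markers had an adjusted p below 0.05 in a comparison with vehicle, and the part of macrophages in the members' differences was not tested. With the epithelial score as a covariate the median log2 fold change of the members was -0.91 in insulin, -0.78 in glargine, -0.74 in X10 and -0.62 in IGF1 tumors. The neutrophil markers S100a8, S100a9, Cxcr2 and Ly6g had a median summed RPKM of 213 in vehicle and 70.6 to 140.2 in the treated groups. With the leukocyte score, the mean z-score of the 4 markers, as a covariate in the fit, 35 members were lower in insulin tumors at an unadjusted p below 0.05 (4.68% of all genes), 26 in glargine (3.48%), 33 in X10 (9.12%) and 26 in IGF1 tumors (5.37%), with medians of -1.52, -0.96, -1.16 and -0.89, and again 0 of the 37 passed the adjusted test. The tumor with the lowest leukocyte score was Untreated_161.

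Several of these counts rested on single tumors. Leaving out Untreated_186 moved the median from -0.86 to -0.56 in insulin and from -0.56 to -0.35 in IGF1 tumors, and the unadjusted count from 12 to 6 in glargine, from 17 to 6 in X10, from 5 to 1 in IGF1 and from 19 to 11 for the pooled ligands. The number of genes lower in IGF1 tumors went from 36 to 31 without it, to 33 without Untreated_162 and to 34 without IGF1_160. Without glargine_78 or Untreated_161 the glargine count was 23 and 19, and without glargine_62, glargine_67 or Untreated_162 it was 7. The X10 count was 6 without Untreated_182, 7 without Untreated_162, 8 without X10_116, 10 without X10_100 or Untreated_197, and 11 without X10_111 or X10_120. The IGF1 count was 14 without IGF1_136, 10 without Untreated_194 and 8 without Untreated_187. It was 2 without IGF1_128, IFG1_132, IGF1_147, IGF1_160, Untreated_162 or Untreated_182, 2 when only the 2 groups compared were in the fit, and 3 without IGF1_135 or Untreated_197 or with an epithelial score as a covariate.

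Between the ligands the differences were smaller. X10 and IGF1 tumors against the other 3 groups had lower values for 31 of the 37 genes with a median of -0.16, against -0.02 over all genes, and 0 members passed an unadjusted 0.05 as lower (7.57% of all genes) or higher (2.97%). With the leukocyte score as a covariate 2 members passed it as lower (8.09% of all genes), and with library size 1 (6.84%). Without covariates Parp9 had the smallest p, with -0.29 (SE 0.15, adjusted p = 0.501), and Xaf1 the smallest p among the higher genes, with 0.17 (SE 0.23, adjusted p = 0.876). Glargine tumors had lower values than insulin tumors for 11 of the 37 genes with a median of 0.10, and X10 tumors for 9 with a median of 0.12. With the leukocyte score as a covariate the medians were 0.54 with 0 genes lower in the first of these comparisons, 0.33 with 3 lower in the second, and -0.24 with 36 lower for X10 and IGF1 against the other groups. In both comparisons 0 members were lower (1.86% and 8.29% of all genes) or higher (2.1% and 3.02%) at an unadjusted p below 0.05 in the limma test, the smallest adjusted p was 0.990 and 0.743, and 0 (0%) and 17 (0.102%) of all genes were called. The interval of the difference between glargine and insulin was -0.49 to 1.38 for Rsad2 (0.44 (SE 0.47)) and -1.03 to 0.32 for Gbp7 (-0.35 (SE 0.34)). That between X10 and insulin was -0.41 to 1.30 for Zbp1 (0.45 (SE 0.42)) and -0.95 to 0.40 for Gbp7 (-0.28 (SE 0.34)). These directions rested on single tumors. The number of genes lower in glargine than in insulin tumors was 28 without glargine_78, 17 without insulin_13 or insulin_21, 4 without insulin_8, insulin_9 or insulin_15 and 7 without glargine_67 or glargine_73. For X10 against insulin it ran from 5 without insulin_9 to 20 without insulin_13, with 6 without insulin_8 or insulin_15, 19 without X10_113, 18 without insulin_18, 17 without insulin_14, insulin_21 or X10_105, 16 without X10_115 and 14 without insulin_26. For X10 and IGF1 against the other groups the median was -0.062 with 25 genes lower without glargine_78 and -0.28 with 36 lower without IGF1_136. It was -0.098 to -0.076 without insulin_8, insulin_15, X10_100, IGF1_128, IGF1_147, IGF1_160 or Untreated_186. The intervals of Rsad2 and Zbp1 reach beyond 1 on the log2 scale, and the medians changed sign when 1 tumor was left out (glargine_78 in the first comparison, -0.12; insulin_13 or X10_113 in the second, -0.0089 and -0.0021).

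**Figure D3:**
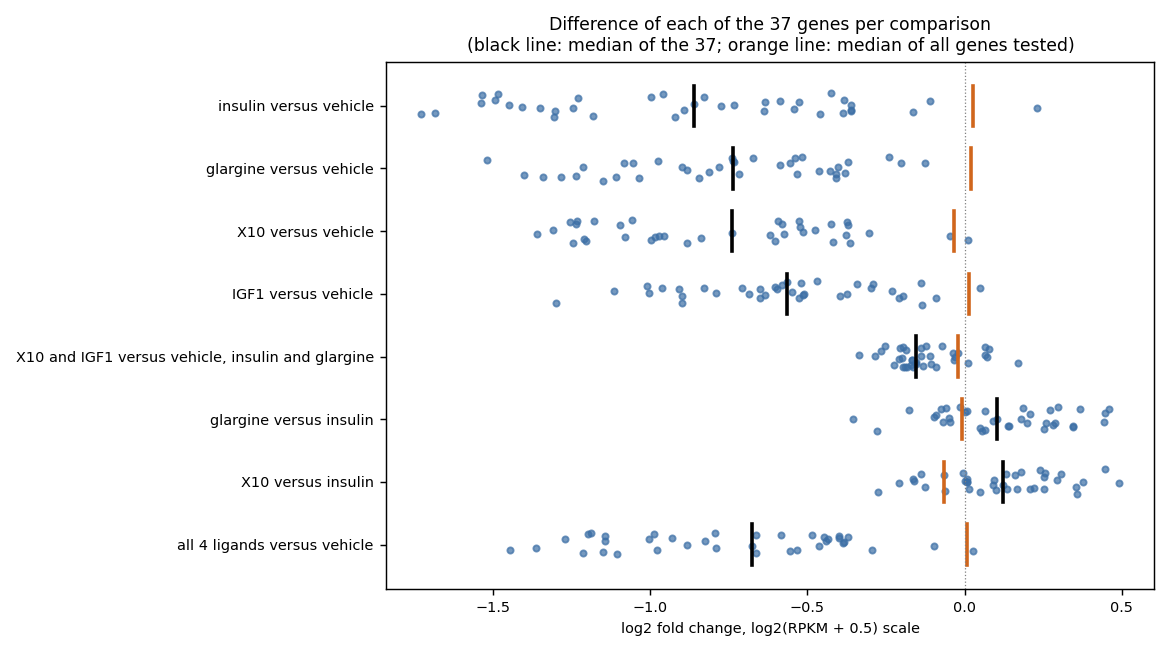
Each point is the log2 fold change of 1 of the 37 genes on the log2(RPKM + 0.5) scale, with 1 line of points per comparison, the black line is their median and the orange line the median of all 16733 genes tested. The points of the 4 comparisons with vehicle lie almost entirely left of 0 with medians of -0.86 to -0.56, while those of glargine and X10 against insulin lie on both sides of 0 and those of X10 and IGF1 against the other 3 groups have a median of -0.16.

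The genes varied together from tumor to tumor. Over the 50 tumors the mean Pearson correlation of the 666 pairs of members was 0.789, against 0.026 over all pairs of tested genes, and it was 0.791 after each gene was centred within its treatment group. A first principal component held 79.9% of the variance of the 37 genes. The closest pair was Ifit1 and Ifit3 (r = 0.970), followed by Oas3 and Oasl2 (0.970) and by Irgm1 and Igtp (0.967), and the least alike were Oasl1 and Gbp7 (0.302). Ifi44 had the highest mean correlation with the other 36 genes (0.855), and Gbp7 (0.631) and Dtx3l (0.644) had the lowest. Neighbours on a chromosome were alike too: r was 0.824 for Cxcl9 and Cxcl10, 0.908 for Mx1 and Mx2, and 0.908 for the overlapping Dtx3l and Parp9. These correlations describe tumors that share a platform and a scaling, and they are given without a test.

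Within the list, the GTPases and chemokines were on average more alike to each other than to the rest, without a sharp division. Igtp (0.851) and Irgm1 (0.843) had high mean correlations with the other members, and the gene closest to Cxcl10 was Mx1 (r = 0.912). Low mean correlations occurred among the GTPases and chemokines (Gbp7 0.631, Cxcl9 0.698) and among the rest (Dtx3l 0.644, Oasl1 0.703). The mean correlation was 0.855 over the 28 pairs of GTPases and chemokines, 0.807 over the 406 pairs of other members and 0.749 over the 232 pairs between the blocks, and the mean z-scores of the blocks had r = 0.888 over the 50 tumors. In Untreated_174 members of the list parted widely. This tumor had 100.5 RPKM of Oasl1, 278 of Bst2 and 17.4 of Oas3, at ranks 2, 5 and 5 of the 50 tumors from the highest. Its Iigp1 (0.766 RPKM), Gbp7 (2.85) and Ifit2 (0.575) were the lowest of the 50, and its Cxcl9 (0.248), Cxcl10 (3.44) and Xaf1 (23.9) the second lowest, although Ifit2 and Xaf1 belong to the other block. Of that block Trim30a (rank 48), Ifit3 (46), Ifih1 and Mx1 (both 41) and Ifit1 and Rsad2 (both 40) were low too. In insulin_9 the order was the other way around. Cxcl9 (64.9 RPKM) was the second, Gbp7 (23.6) the third, and Gbp2 (144) and Iigp1 (44.5) the fourth highest of the 50, while Isg15 (34.2) and Ifit1 (6.97) were at rank 20 and Oasl1 (16.1) at rank 23. The T and NK cell score was the fourth highest in insulin_9 and the second lowest in Untreated_174, whose neutrophil score was the highest, epithelial score the second highest and mesenchymal score the second lowest of all tumors.

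**Figure D4:**
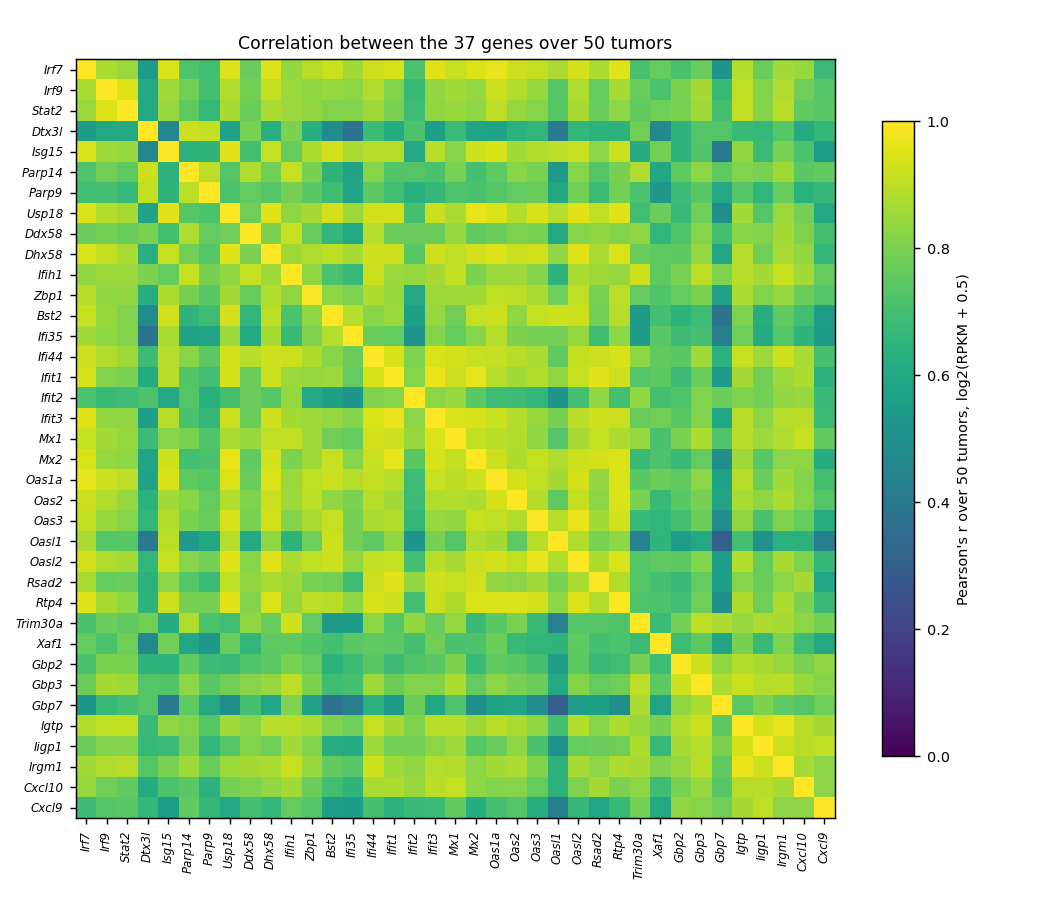
Pearson correlation over the 50 tumors between the 37 genes on the log2(RPKM + 0.5) scale, with genes grouped by role. Almost all squares are above 0.5, with darker bands for Dtx3l, Oasl1 and Gbp7 and the lowest value, 0.302, between Oasl1 and Gbp7.

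The interferons themselves were barely detected. Ifnb1 had a mean of 0.0718 RPKM and was listed at 0 in 16 of the 50 tumors. Its median was 0.117 RPKM in vehicle, 0.013 in insulin, 0.0195 in glargine, 0.0715 in X10 and 0.013 in IGF1 tumors, with overlapping ranges and no test at these levels. Ifng, the product of T and NK cells, had a mean of 0.134 and a highest value of 0.704, and was listed at 0 in 5 tumors. Ifna1, Ifna2, Ifna4, Ifne, Ifnk, Ifnl2 and Ifnl3 had means of 0.00106 to 0.0604. All 9 ligand genes were below the mean of 0.5 RPKM required for the tests. Of their receptors, Ifnar1 was 21.3 to 54.7 RPKM and Ifnar2 26.4 to 66.5, and Ifngr1, at 109 to 425, and Ifngr2, at 23.0 to 103, were expressed in all tumors as well. Ifnlr1, the receptor chain for the lambda interferons, was low and varied from 0.057 to 3.33 RPKM. Its median was 0.775 in vehicle, 0.307 in insulin, 0.632 in glargine, 0.519 in X10 and 0.199 in IGF1 tumors, and the log2 fold change was -0.80 (SE 0.29, adjusted p = 0.324) in insulin and -1.06 (SE 0.29, adjusted p = 0.277) in IGF1 tumors. The correlation of the mean member z-score with Ifnar1 was 0.00693 and with Ifngr1 0.36.

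Among the transducers and factors, Irf1, an interferon gamma-induced factor, had r = 0.698 with the mean member z-score and Socs1, a feedback inhibitor, 0.636, while the kinases Jak1 (0.092) and Tyk2 (0.248) and the transcription factor Irf3 (0.157) had lower correlations. Stat3 (-0.242) and Socs3 (-0.361), of the interleukin 6 pathway, had negative correlations with it. Of the genes that act in nucleic acid sensing or in limiting it, Adar (0.828) and Samhd1 (0.767), both known to be interferon-induced, came first, then Tlr3 (0.670), Tlr9 (0.615) and Mb21d1 (cGAS, 0.539), and the adaptor Mavs was at -0.038. Trex1 was listed at 0 in all 50 tumors. Whether its RNA was absent or its reads were not counted was not tested. In the 4 comparisons with vehicle, 0 of the 6 tested receptor genes, 0 of the 12 transducers and factors and 0 of the 15 sensing genes had an adjusted p below 0.05 in limma, with medians between -0.09 and 0.13. At an unadjusted 0.05 at most 2 genes of a list passed in either direction. Of all genes tested 2.75% to 8.25% did, by comparison and direction.

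The genes outside the list whose levels followed its mean most closely were Oas1g (r = 0.960, over 50 tumors), Cmpk2 (0.956), Phf11a (0.946), I830012O16Rik (0.945), Gm12250 (0.940), Irgm2 (0.939), Gbp6 (0.934), Trim30d (0.932), Phf11b (0.930) and Herc6 (0.929). Oas1g, Irgm2, Gbp6 and Trim30d are close relatives of members and may share reads with them. Cmpk2 is a nucleotide kinase that lies beside Rsad2 in the genome.

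Of the marker scores of immune cells described here, that of T and NK cells had the highest median correlation with the list, without a test of the difference. A score was the mean z-score of a set of markers in a tumor. Over the 37 genes the median correlation with the score of 11 T and NK cell markers was 0.544, and 22 genes exceeded 0.5, against 5.16% of all genes tested. It was 0.641 for the GTPases and chemokines and 0.480 for the other members. The single markers differed in their correlation with the mean member z-score. Nkg7 had 0.673, Cd8b1 0.656, Cd8a 0.639, Cd3d 0.632, Cd3g 0.594 and Cd3e 0.590. Lower values were those of Klrd1 (0.418), Ncr1 (0.344), Gzmb (0.291), Cd4 (0.287) and Prf1 (-0.119). The median over the list was 0.392 for plasmacytoid dendritic cell, 0.305 for leukocyte, 0.275 for dendritic cell, 0.264 for B cell and 0.232 for macrophage markers. For adipocyte, skeletal muscle and endothelial markers it was 0.234, 0.217 and 0.135. For epithelial, neutrophil and mesenchymal markers it was -0.027, -0.206 and -0.246. The T and NK cell markers were present in every group, with a summed RPKM of 5.06 to 128.004 in vehicle, 18.9 to 239 in insulin, 9.72 to 65.2 in glargine, 15.3 to 183 in X10 and 13.0 to 62.7 in IGF1 tumors. In limma 0 of the 11 markers were called in a comparison with vehicle, and 0 passed an unadjusted 0.05 in the 4 comparisons. Of all genes tested 2.75% to 8.25% passed it, by comparison and direction. The part of the markers in the differences between treatments was not tested.

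For Isg15 and Cxcl9, 8 relations with scores were tested by permuting the tumors (100000 resamples, two-sided, adjusted over the 8). Cxcl9 was correlated with the T and NK cell score (Pearson r = 0.782, Spearman rho = 0.785, both p = 1e-05, the smallest that these permutations can give, adjusted p = 8e-05). The relation was 0.771 without the 2 tumors farthest from the median score and 0.832 after centring within treatments. With the leukocyte score r was 0.494 (rho = 0.447, p = 0.00027 and 0.00119, adjusted p = 0.00108 and 0.00476), and 0.434 without 2 tumors. With the macrophage score it was 0.384 (rho = 0.373, p = 0.00637 and 0.00812, adjusted p = 0.0127 and 0.0162), but 0.327 with an adjusted p of 0.0556 without 2 tumors, so the call rests on those tumors although r moved little. Centred within treatments r was 0.540 (adjusted p = 0.000267). With the epithelial score it was -0.081 (rho = -0.123, p = 0.577 and 0.395, adjusted p = 0.659 and 0.632).

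Isg15 was less closely tied to these scores. Its correlation with the T and NK cell score was 0.412 (rho = 0.401, p = 0.00269 and 0.00404, adjusted p = 0.00717 and 0.0108). Without the 2 tumors farthest from the median, r was 0.317 (adjusted p = 0.0556) and rho was 0.344 (adjusted p = 0.0441). The call by r thus rests on those tumors, while the call by rho was kept. Centred within treatments r was 0.526 (adjusted p = 0.0003). With the leukocyte score r was 0.174 (rho = 0.0965, p = 0.226 and 0.503, adjusted p = 0.362 and 0.671) over all tumors, and 0.367 (adjusted p = 0.014) after centring within treatments. With the macrophage score r was 0.0997 (rho = 0.0106, p = 0.492 and 0.943, adjusted p = 0.656 and 0.943), and 0.273 (adjusted p = 0.0737) after centring, and with the epithelial score -0.0086 (rho = -0.0239, p = 0.953 and 0.869, adjusted p = 0.953 and 0.943). The difference between the correlations of Isg15 and Cxcl9 was not tested.

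**Figure D5:**
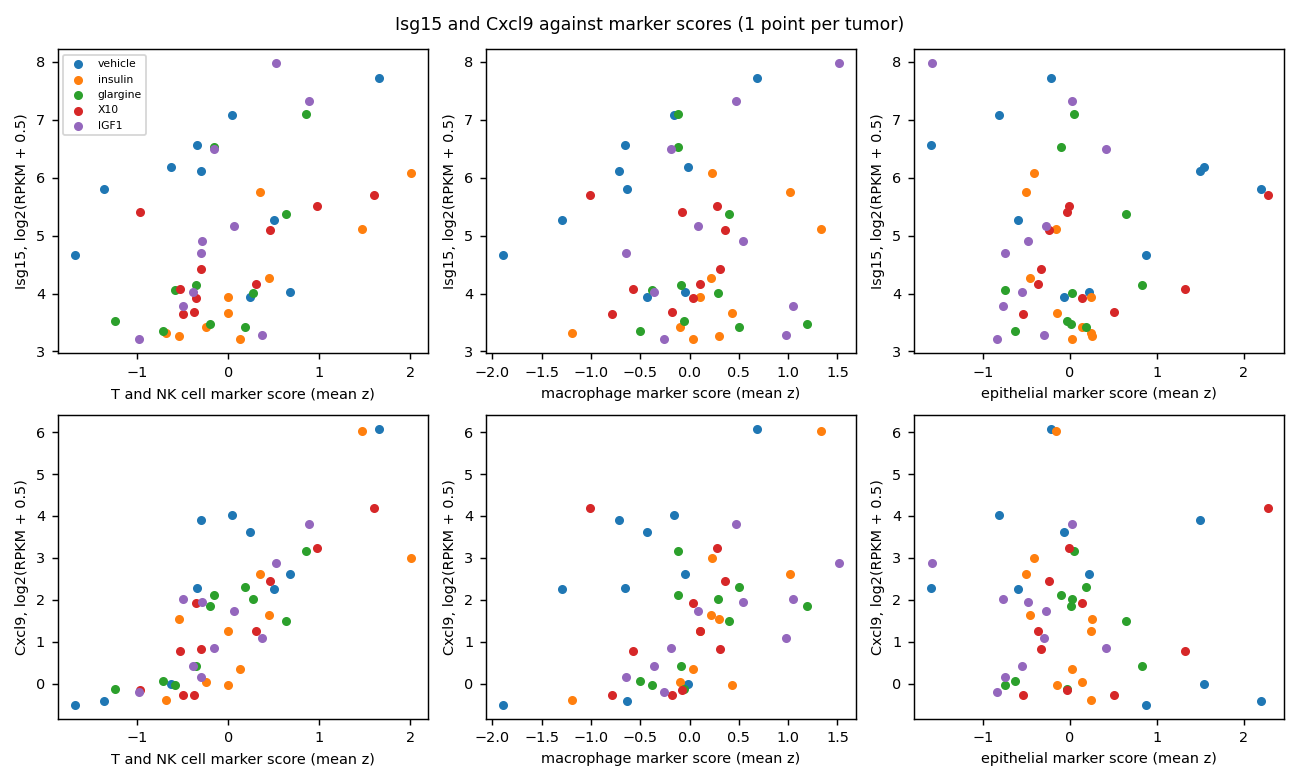
Isg15 (upper row) and Cxcl9 (lower row), as log2(RPKM + 0.5), against the T and NK cell, macrophage and epithelial marker scores (mean z-score), with 1 point per tumor colored by treatment. Cxcl9 climbs with the T and NK cell score (r = 0.782), while Isg15 takes high and low values at the same score.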

How the data were processed

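RNA of 50 mammary gland tumors was Poly-A selected and sequenced on the Ion Proton. Per the submitters' processing notes, the tools were TopHat2 2.0.10, Bowtie2, HTSeq 0.6.1 and DESeq2 1.2.10 with GRCm38. The authors deposited RPKM values, in which reads per gene were scaled for library size and divided by gene length, with a column per tumor; the alignment and counting were not repeated. Because RPKM values are not counts, the count model of the study was not applied. The 16733 of 37701 genes whose mean RPKM reached 0.5 were tested with limma 3.58.1 (R 4.3.3, empirical Bayes with an intensity trend) on log2(RPKM + 0.5), a scale that understates changes of low genes, with all 5 groups modelled together and p-values adjusted by Benjamini-Hochberg over all genes. The procedure was tested on simulated data. Library sizes were recovered from the steps of the values, of which at least 97.1% of the low ones were whole in each tumor. The fit gave all tumors equal weight, so the number of tumors and the spread between them set its precision.

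The members and lists were chosen with earlier results of these data known. All 37 genes are named. A gene of the transducer list is not reported here. Values in full are given for the smallest p in each direction of each comparison, for the highest mean and largest SD in each role class, and for Isg15 and Cxcl9, and outside the list for the 10 genes most correlated with its mean z-score. Correlations used scipy 1.17.1, numpy 2.4.6 and pandas 2.3.3 in Python 3.11.15, and figures matplotlib 3.10.9. Alternatives were pseudocounts of 0.1 and 1, other filters on low values, quantile normalization, upper quartile scaling, no trend, only the compared groups, leukocyte or epithelial scores as covariates and leaving out each tumor. Library size as a covariate and the pooled comparison of the 4 ligands were added after seeing the data.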

Additional observations from a re-analysis of the deposited data

Results flagged for a closer look

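Within single treatment groups, 10 of 185 sets of 10 values (37 genes in 5 groups) had 1 tumor far above the other 9, by Dixon's test of the gap to the next tumor divided by the range on the log2(RPKM + 0.5) scale (95% critical value). Chance flags about 1 set in 20, and the genes vary together, so the sets are not independent. In 9 of the 10 sets the tumor was glargine_78. It had 18.5 RPKM of Oas3 where the next glargine tumor had 4.20, and 14.1 RPKM of Rsad2 where the next had 3.63. Its RNA sensors Ddx58 and Ifih1 were at 108.5 and 23.5 RPKM, against 53.9 and 6.57 in the next tumors. Its Ifi44 was 59.6 RPKM, its Parp14 30.9 RPKM and its Parp9 102.6 RPKM, against 8.70, 16.0 and 66.2. The GTPases Gbp3 and Irgm1 were at 56.1 and 51.6 RPKM, against 18.9 and 16.7. The T and NK cell marker score of glargine_78 was the seventh highest of the 50 tumors and its leukocyte score was at rank 32. Its library, with 26.6 M reads, was the smallest of the 50.

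The remaining set was Cxcl9 in the insulin tumors, where insulin_9 had 64.9 RPKM and the next tumor 7.46. The leukocyte and macrophage scores of insulin_9 were the second highest of the 50 tumors. The part of these cells in the values was not tested.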

How the results depend on the processing

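No paired analysis was possible because the replicate numbers are mouse numbers that no groups share. The count of members called was 0 in every comparison under every alternative and with each tumor left out. Over alternatives other than leaving out a tumor, the smallest adjusted p among the members was 0.162 to 0.474 for insulin, 0.532 to 0.938 for glargine, 0.121 to 0.474 for X10, 0.297 to 0.941 for IGF1 and 0.0927 to 0.438 for the 4 ligands together. With 1 tumor left out, the median log2 fold change of the members ran from -1.09 to -0.56 for insulin, -0.99 to -0.53 for glargine, -0.93 to -0.50 for X10, -0.75 to -0.35 for IGF1 and -0.92 to -0.47 for the 4 ligands together. It ran from -0.28 to -0.06 for X10 and IGF1 against the other groups, -0.12 to 0.25 for glargine against insulin and -0.01 to 0.32 for X10 against insulin.

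Fold changes of single genes were recomputed for those with the smallest p in each direction of a comparison, and of these Gbp7 and Trim30a changed direction. With the leukocyte score as a covariate, Gbp7 became -0.43 for insulin, -0.33 for IGF1, 0.10 for glargine against insulin and -0.39 for the 4 ligands, and Trim30a became -0.38 for X10. With the epithelial score, Gbp7 was -0.16 for IGF1 and -0.073 for the 4 ligands. With library size, Trim30a was -0.035 for X10 and Gbp7 -0.0088 for the 4 ligands. With 1 tumor left out, Trim30a for X10 ran from -0.18 to 0.17, Gbp7 for IGF1 from -0.13 to 0.20 and Gbp7 for the 4 ligands from -0.15 to 0.17. Without the 2 tumors farthest from the median score, the correlation of Isg15 was -0.020 with the macrophage score and 0.317 (adjusted p = 0.0556) with the T and NK cell score, and that of Cxcl9 with the macrophage score was 0.327 (adjusted p = 0.0556). Spearman rho was 0.344 (adjusted p = 0.0441) for Isg15 with the T and NK cell score. It was 0.317 (adjusted p = 0.0542) for Cxcl9 with the macrophage score. With the median over markers, Isg15 and the epithelial score had r = 0.0077, and centred within treatments Isg15 and the leukocyte score had r = 0.367 (adjusted p = 0.014). The causes were not tested. In all, 368 of 382 other checks and 1581 of 1600 that left out a tumor kept their direction and their side of the threshold.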
